A study of Sus scrofa with 24 samples.

Results

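This account covers the liver genes that carry carbon from acetyl-CoA to palmitate. The members were every non-control probe whose name or description in the scanner output was ACLY, ACSS2, ACACA, ACACB, FASN, ELOVL6, THRSP or MLXIPL. Of these 8 genes, 6 had a probe, and no probe found by that rule carried ELOVL6 or THRSP, so both were not analysed here. The 6 genes had 14 of the 43603 probes, namely 3 each for ACLY, ACSS2 and FASN, 2 each for ACACA and ACACB, and 1 for MLXIPL. Only probes with a signal well above background in 6 or more of the 8 pigs of any group entered the tests, which kept 12 of the 14 probes, for 5 of the 6 genes, and 29665 probes in all.

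Liver RNA of 24 pigs weighing 115 kg was measured on 1 array per pig, in 3 groups of 8. Residual feed intake (RFI) is the feed an animal eats beyond what its growth and maintenance predict. The restricted high RFI group (RFIplR) came from a line selected for high RFI and was held to the amount that the low RFI line ate. The high RFI group (RFIpl) was of the same line with feed ad libitum, and the low RFI group (RFIneg) was of a line selected for low RFI, also fed ad libitum. High against low RFI compares the lines at free intake, restricted against free-fed high RFI compares feeding levels within a line, and restricted high against low RFI compares the lines at an equal feeding level. The labels used here give neither sex nor age, nor the family relations between pigs, and each line is 1 selected population.

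In the liver, excess carbohydrate is turned into fatty acids in the cytosol. ATP citrate lyase (ACLY) splits citrate into acetyl-CoA and oxaloacetate, and the acetyl-CoA synthetase ACSS2 makes acetyl-CoA from acetate. Acetyl-CoA carboxylase then makes malonyl-CoA: ACACA is the cytosolic form that feeds synthesis, while ACACB sits at the mitochondrial surface, where its malonyl-CoA restrains fatty acid entry. Fatty acid synthase (FASN) builds palmitate from acetyl-CoA, malonyl-CoA and NADPH, and MLXIPL (ChREBP) is a transcription factor that responds to glucose and drives many of these genes. In pigs, adipose tissue is the main site of fatty acid synthesis, and the liver contributes less.

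Each probe is a 60-base oligonucleotide. Of the 14 probes, 13 read through at least 1 forward frame without a stop codon. From these, 7 are shown, for each enzyme at least 1, because a level is the signal at 1 such short stretch of a transcript. For ACACA the first is the brightest probe, whose level stands for the gene below, while for ACLY, ACSS2 and FASN the one shown is a dimmer probe. The ACACA pair is given because its probes ranked the pigs differently, and the ACACB pair because neither passed the background rule.
ACLY A_72_P710913: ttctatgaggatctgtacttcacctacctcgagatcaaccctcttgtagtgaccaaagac
ACSS2 A_72_P560374: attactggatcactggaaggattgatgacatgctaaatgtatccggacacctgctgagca
ACACA A_72_P442314: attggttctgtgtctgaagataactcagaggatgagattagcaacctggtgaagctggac
ACACA A_72_P305844: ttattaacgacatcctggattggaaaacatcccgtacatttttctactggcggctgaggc
ACACB A_72_P413058: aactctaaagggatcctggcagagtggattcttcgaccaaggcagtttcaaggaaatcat
ACACB A_72_P488413: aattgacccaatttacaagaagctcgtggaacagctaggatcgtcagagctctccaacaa
FASN A_72_P647699: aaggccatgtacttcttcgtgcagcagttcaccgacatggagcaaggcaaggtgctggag
The brightest ACLY probe, A_72_P165331, had no open forward frame and was the only one of the 14 with a polyadenylation hexamer (AATAAA), which began at base 45 and is in capitals in its last 30 bases: catagtttggtttaAATAAActatatcata. The G and C content of the 14 probes ran from 36.7% to 55%. No member probe shared a run of 16 or more bases with another member probe. The ACSS2 probe A_72_P226742 shared 16 bases with 1 unnamed probe.

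Pairs of arrays correlated at 0.971 to 0.991, and the share of spots well above background was 67.4% ± 2.81 in restricted high RFI, 70.2% ± 2.28 in high RFI and 67.8% ± 2.77 in low RFI pigs (SD, n = 8 each). The arrays lay on 6 slides scanned on 2 days, and each slide and each day held all 3 groups. The high RFI group, with the highest share, also had the highest means of FASN, ACACA and ACSS2, and the part of the share in those levels was not tested. Of 8 hepatocyte markers, the 7 with a probe were all measured, and albumin (ALB) and transthyretin (TTR) averaged 9.42 and 8.86 on the log2 scale defined below. Fat cells also carry much of this pathway. Of 7 adipocyte markers on the array, 5 were measured, and the probes of perilipin 1 (PLIN1) and lipoprotein lipase (LPL) failed the background rule. The summed linear level of those 5 markers, with the array's 75th percentile set to 1, was 4.34 to 9.80 in restricted high RFI, 5.24 to 7.59 in high RFI and 5.83 to 8.54 in low RFI pigs. These ranges overlapped. The sum was mostly CIDEC, at a mean log2 level of 2.39, with the next marker, FABP4, at -0.93. All 5 were below 0 for high minus low RFI (lowest limma adjusted p = 0.714) and for restricted high minus low RFI (lowest 0.469). The part of fat cells in the results was not tested. The 6 stellate cell and fibroblast markers measured had a mean log2 level of 0.12 in restricted high RFI, 0.28 in high RFI and 0.69 in low RFI pigs, and summed levels of 11.99 to 29.2, 9.61 to 30.8 and 17.6 to 38.5 in the same groups. For high minus low RFI, 5 of the 6 were below 0, with RGS5 at -1.10 (limma adjusted p = 0.163), COL1A2 at -0.54 (adjusted p = 0.405) and SPARC at -0.47 (adjusted p = 0.603). The pancreatic enzyme CPA1 gave -1.32 (adjusted p = 0.317). For restricted high minus low RFI, again 5 of those 6 were below 0. RGS5 was at -1.29 (limma adjusted p = 0.0633), COL1A2 at -0.84 (adjusted p = 0.0815) and SPARC at -0.56 (adjusted p = 0.376). CPA1 gave -1.81 (adjusted p = 0.0817), and 2 of the 3 pancreatic markers measured were below 0 in both comparisons. None of the markers measured, which also covered endothelium, macrophages, T and NK cells and red blood cells, passed the adjusted threshold in any comparison, and their part in the results was not tested. In bulk liver, a change in the share of a cell type and a change in RNA per cell cannot be told apart.

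Levels below are log2 signals from which the 75th percentile of that array was subtracted, and differences are on the same log2 scale, where 1 is a doubling. The probe with the highest mean stands for its gene. Differences were tested with limma over all 29665 probes with Benjamini-Hochberg adjustment, and the threshold was an adjusted p of 0.05.

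The outcome for the pathway was the same in all 3 comparisons: no member probe passed the adjusted threshold. Between high and low RFI pigs, 48 of 29665 probes passed (0.162%), with 9.64% below 0.05 before adjustment. Between restricted and free-fed high RFI pigs none did (0%), although 1594 (5.37%) had an unadjusted p below 0.05, and between restricted high and low RFI pigs 68 passed (0.229%), with 12.8% below 0.05 before adjustment. In the F test over the 3 groups, 63 probes passed (0.212%), and the lowest adjusted p of a member was 0.329, for FASN probe A_72_P175196. Without adjustment, FASN, ACACA and ACSS2 had p below 0.05 between high and low RFI pigs, in each case with the higher mean in high RFI pigs. ACSS2 was also below 0.05 between restricted and free-fed high RFI pigs, with the lower mean in restricted pigs.

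**Figure D1:**
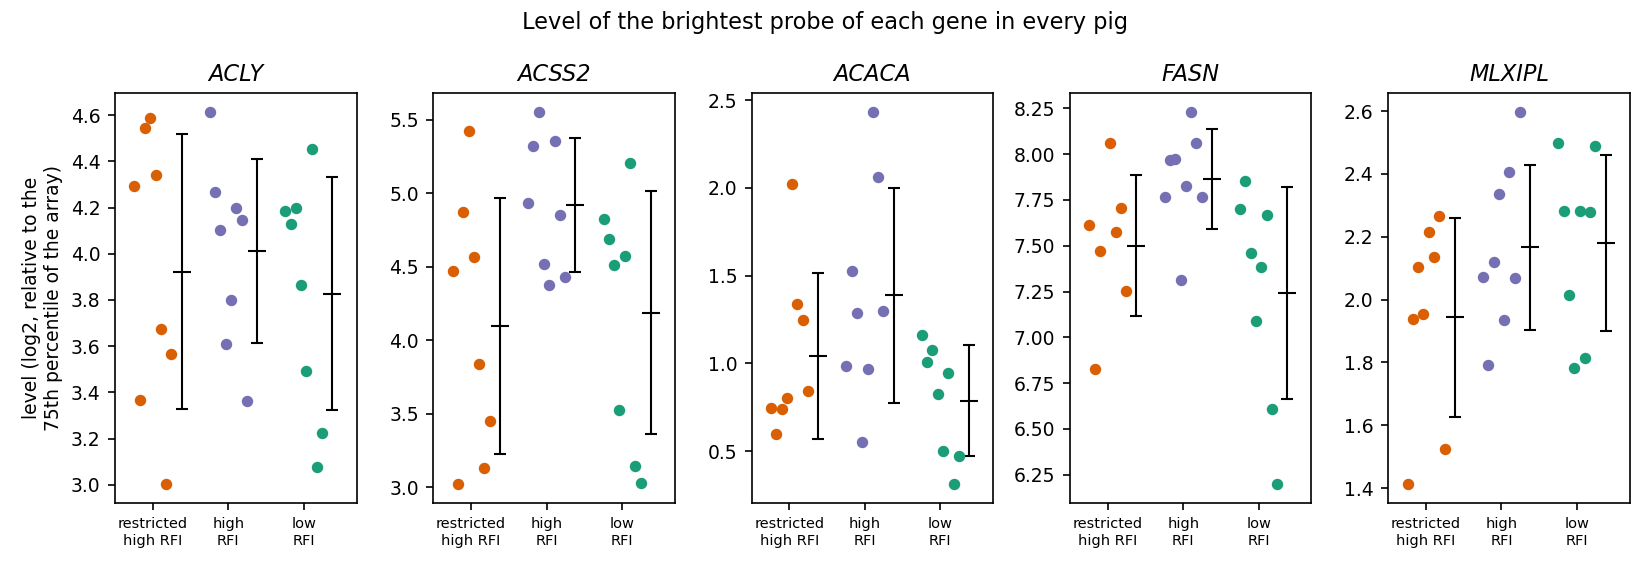
Log2 level (array 75th percentile set to 0) of the brightest probe of each gene. Points are pigs in order of their number, and the bar beside them is the mean ± SD (n = 8 per group, 7 for FASN in restricted high RFI, where 1 outlier spot was left out). Each panel has its own vertical scale, and the groups overlap in every panel.

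ACLY supplies acetyl-CoA from citrate. Its brightest probe had a lowest, median and highest level of 3.003, 3.98 and 4.59 in restricted high RFI, 3.36, 4.12 and 4.61 in high RFI, and 3.08, 3.996 and 4.45 in low RFI pigs. The 3 groups covered nearly the same range, and 1 high RFI pig lay above all low RFI pigs. High minus low RFI was 0.19 (95% interval -0.31 to 0.68, limma adjusted p = 0.850), and restricted minus free-fed high RFI was -0.090 (-0.59 to 0.41, adjusted p = 0.993). Without low RFI pigs 7 and 8, the lowest of their group, the high minus low difference was -0.040. The other ACLY probes differed between high and low RFI by 0.19 and 0.36, with adjusted p of 0.845 and 0.740.

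ACSS2 supplies acetyl-CoA from acetate, and it varied most from pig to pig. Its brightest probe had a lowest, median and highest level of 3.02, 4.15 and 5.42 in restricted high RFI, 4.37, 4.89 and 5.55 in high RFI, and 3.03, 4.54 and 5.20 in low RFI pigs. The high RFI pigs lay in the upper part of the range, and the other groups each held pigs more than 1 log2 unit below the lowest of them. All 8 high RFI pigs were above the low RFI mean, and 3 of them were above every low RFI pig. The group means were 4.10 ± 0.87 in restricted high RFI, 4.92 ± 0.46 in high RFI and 4.19 ± 0.83 in low RFI pigs (SD, n = 8 each).

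For ACSS2, high minus low RFI was 0.73 ± 0.35 (SE), a 1.66-fold higher mean, with a limma adjusted p of 0.513. Restricted minus free-fed high RFI was -0.82 ± 0.35, with 7 of 8 restricted pigs below the high RFI mean and an adjusted p of 0.912. These comparisons share the high RFI arrays and are not independent of each other. At equal feeding, restricted high minus low RFI was -0.092 (95% interval -0.81 to 0.63, adjusted p = 0.940). The other 2 ACSS2 probes gave 0.65 and 0.75 for high minus low RFI, -0.80 and -0.73 for restricted minus free-fed high RFI, and -0.15 and 0.018 for restricted high minus low RFI.

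The ACSS2 differences had the same sign on each scan day. High minus low RFI was 0.71 on day 1 and 0.75 on day 2, and restricted minus free-fed high RFI was -0.85 and -0.75. With 1 pig left out at a time, high minus low RFI was 0.56 to 0.87. Restricted minus free-fed high RFI was then -1.01 to -0.67. Low RFI pigs 7 and 8 were the lowest of their group, so leaving out both could only shrink high minus low RFI. It was then 0.36, with a limma adjusted p of 0.928. Restricted pigs 7 and 8 lay below their group mean, and without them restricted minus free-fed high RFI was -0.55.

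ACACA makes the malonyl-CoA used in synthesis. Its brightest probe had a lowest, median and highest level of 0.60, 0.82 and 2.02 in restricted high RFI, 0.55, 1.29 and 2.43 in high RFI, and 0.31, 0.89 and 1.16 in low RFI pigs. Low RFI pigs were the tightest group at this probe, and 5 of 8 high RFI pigs lay above all of them. High minus low RFI was 0.60 ± 0.23 (SE), a 1.52-fold higher mean, with a limma adjusted p of 0.390. Restricted minus free-fed high RFI was -0.35 ± 0.23 (adjusted p = 0.950), and restricted high minus low RFI was 0.25 ± 0.23 (adjusted p = 0.691). The mean of the restricted group lay between those of the other groups, and neither difference passed the threshold.

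The other ACACA probe, A_72_P305844, gave 0.69, -0.44 and 0.24 in those 3 comparisons. Its high minus low difference had an adjusted p of 0.358. Low RFI pigs were not the tightest group there, with an SD of 0.51 against 0.50 in high RFI pigs. By scan day, high minus low RFI at the brightest probe was 0.71 on day 1 and 0.54 on day 2, while restricted minus free-fed high RFI was -0.50 on day 1 and -0.072 on day 2. Without low RFI pigs 7 and 8, the lowest of their group at that probe, high minus low RFI was 0.47.

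ACACB, the mitochondrial carboxylase, could not be measured in these livers. Probe A_72_P413058 was well above background in 1 of 8 restricted high RFI, 1 of 8 high RFI and 0 of 8 low RFI pigs. Probe A_72_P488413 was so in 0, 0 and 1 pigs of the same groups. No fold difference is given for it.

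FASN, which assembles palmitate, had the lowest p of the members between high and low RFI pigs. Its brightest probe had a lowest, median and highest level of 6.83, 7.58 and 8.06 in restricted high RFI (7 pigs), 7.31, 7.90 and 8.23 in high RFI, and 6.20, 7.42 and 7.85 in low RFI pigs. High RFI pigs lay highest as a group, 4 of 8 above every low RFI pig, and the low RFI group had a long lower tail. The means were 7.50 ± 0.39 (SD, n = 7) in restricted high RFI, 7.86 ± 0.27 (SD, n = 8) in high RFI and 7.24 ± 0.58 (SD, n = 8) in low RFI pigs. All 8 high RFI pigs exceeded the low RFI mean.

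For FASN, high minus low RFI was 0.62 ± 0.21 (SE), a 1.54-fold higher mean, with a limma adjusted p of 0.302. The other probes gave 0.76 and 0.81, with adjusted p of 0.279 and 0.346, so the 3 probes had the same direction and a similar size. The difference was 0.60 on scan day 1 and 0.64 on scan day 2. Without low RFI pigs 7 and 8, which hold the lower tail, it was 0.34 with an adjusted p of 0.729.

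Restricted minus free-fed high RFI was -0.36 ± 0.21 (SE) for FASN (adjusted p = 0.940), with 6 of 7 restricted pigs below the high RFI mean. The fit left out the spot of restricted pig 4, marked as an outlier by the scanner software, which read 6.63, or 0.87 below the mean of the other restricted pigs. With that spot kept the difference was -0.47. The other probes gave -0.55 and -0.49, and the value by scan day was -0.52 on day 1 and -0.15 on day 2. Restricted high minus low RFI was 0.26 ± 0.21 (adjusted p = 0.663), and it was -0.024 without low RFI pigs 7 and 8.

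MLXIPL, the glucose-responsive regulator, was the steadiest member. Its lowest, median and highest level was 1.41, 2.03 and 2.27 in restricted high RFI, 1.79, 2.1 and 2.60 in high RFI, and 1.78, 2.28 and 2.50 in low RFI pigs. Free-fed pigs of the 2 lines covered nearly the same range, and the restricted group reached lower. High minus low RFI was -0.014 (95% interval -0.30 to 0.28, limma adjusted p = 0.988), and both restricted comparisons were negative, -0.22 against high RFI (adjusted p = 0.947) and -0.24 against low RFI (adjusted p = 0.508). The value against low RFI was -0.56 ± 0.19 (SE) on scan day 1, with 5 restricted and 3 low RFI pigs. It was 0.12 ± 0.18 on scan day 2, with 3 restricted and 5 low RFI pigs. Whether the days differed was not tested.

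**Figure D2:**
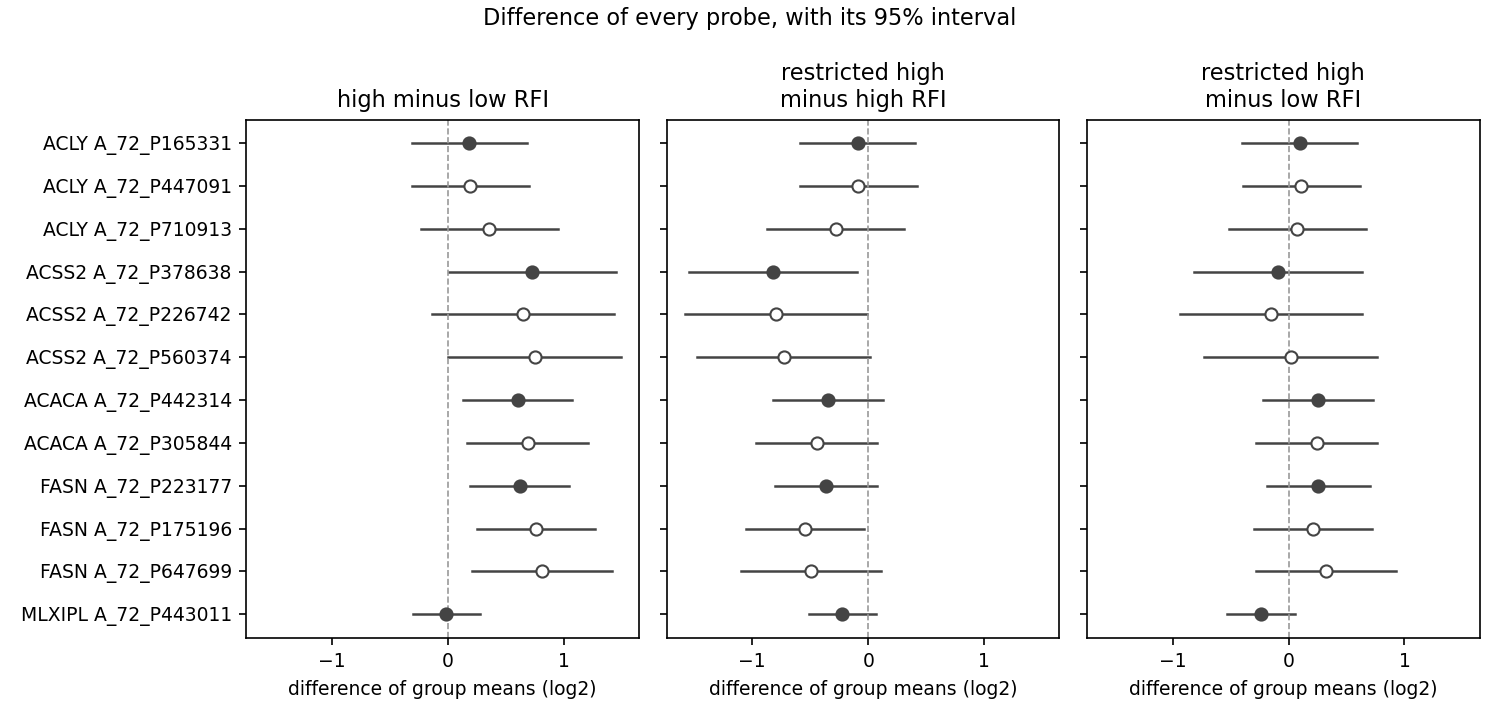
Difference of group means (log2) for the 12 probes kept, with its 95% interval from limma. Filled points are the brightest probe of a gene and open points its other probes. In the left panel 11 of 12 points lie above 0, in the middle panel none does, and in the right panel 9 do.

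Across the 5 genes, the median difference was 0.60 for high minus low RFI, -0.35 for restricted minus free-fed high RFI and 0.096 for restricted high minus low RFI. Over all 29665 probes the medians were 0.0036, -0.011 and -0.0053. Unadjusted p was below 0.05 with the higher mean in high RFI pigs for 3 of the 5 genes, against 5.17% of all probes, and with the lower mean in restricted than in free-fed high RFI pigs for 1 of 5, against 2.83%. The first count was 0 of 5 without low RFI pigs 7 and 8, 0 on scan day 1 and 1 on scan day 2. These pigs were the lowest of their group for each enzyme, so leaving them out could only shrink those differences. Over all probes, 2860 were below 0.05 in either direction with every pig, against 2062, 1923 and 2139 in the same subsets. Each day held only 3 to 5 pigs of a group. The first count was 2 of 5 without low RFI pig 4, 7 or 8, or without high RFI pig 1, 2, 3, 6 or 7. It was also 2 without restricted pig 1, 5 or 6, and 3 without any other single pig. With no filter, with scan day as a block and with the mean over all kept probes of a gene, it was 2 as well. ACSS2 had an unadjusted limma p of 0.0479 at its brightest probe, against 0.101 and 0.0502 at its other probes. The second count was 2 of 5 with the outlier FASN spot kept and 0 on either scan day. It was 0 of 5 without restricted pig 2, 7 or 8 or high RFI pig 3, 2 without high RFI pig 4 and 3 without restricted pig 5. Probes of a gene share its transcript, and several of the genes covaried across pigs, so these counts are not independent observations. FASN, ACACA and ACLY had their mean in the order high, restricted high, low RFI. ACSS2 had it in the order high, low, restricted high RFI at its brightest probe, with restricted high above low RFI at probe A_72_P560374, and MLXIPL in the order low, high, restricted high RFI. Of the 12 probes, 11, 0 and 9 had a difference above 0 in the 3 comparisons, beside 51.0%, 46.9% and 48.7% of all probes. No neighbours in these orders differed past the adjusted threshold. The members, and the pathway lists below, were chosen with earlier results of these data known. Values set beside those of all probes are therefore a description.

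Variation between pigs of the same group was large for the enzymes. The within-group SD was 0.74 for ACSS2, 0.51 for ACLY, 0.48 for ACACA and 0.43 for FASN, against a median of 0.27 over all probes kept. ACSS2 was more variable than 95.9% of them. MLXIPL, at 0.29, was near that median.

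The same animals were low or high for several enzymes. Low RFI pigs 7 and 8 were each among the lowest 6 pigs for ACLY, ACSS2, ACACA and FASN, and so was restricted pig 2. High RFI pig 6 was among the highest 6 for ACSS2, ACACA, FASN and MLXIPL. The share of spots well above background was 66.7% and 65.2% on the arrays of low RFI pigs 7 and 8, 63.2% for restricted pig 2 and 71.4% for high RFI pig 6, within an overall range of 63.2% to 72.7%. Its part in these levels was not tested. The 4 arrays lay on 4 different slides.

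**Figure D3:**
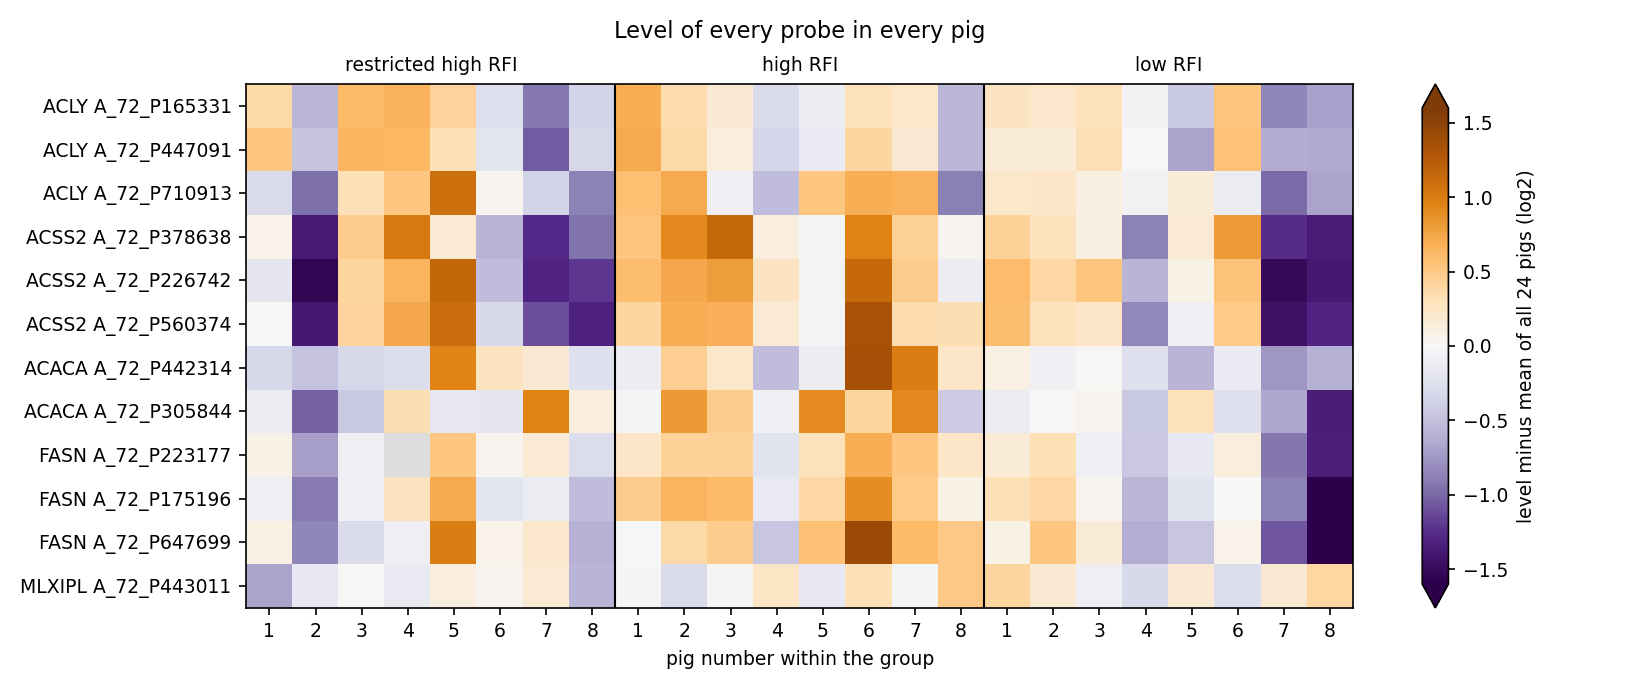
Level of the 12 probes kept (rows) in each of the 24 pigs (columns, numbered within their group), as the log2 level minus the mean of all pigs. Orange is above the mean, purple below, and grey the outlier spot left out. Low RFI pigs 7 and 8 and restricted pig 2 are dark for most enzyme probes, and the MLXIPL row does not follow them.

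Deviations from the group mean were compared between genes across the pigs, with pigs permuted within groups and Benjamini-Hochberg adjustment over 10 pairs. Of the 10 pairs, 4 passed, and all 4 joined enzymes. The share of pairs of other genes that would pass was not computed, so the count does not show a trait particular to these genes. ACLY and ACSS2 had Pearson's r = 0.86 and Spearman's rho = 0.83 over 24 pigs (permutation p = 2e-05 and 5e-05, adjusted 0.0001 and 0.00025). ACACA and FASN had r = 0.70 and rho = 0.79 over 23 pigs, both with p = 1e-05, the smallest that 100000 permutations can give (adjusted p = 0.0001). ACSS2 and FASN had r = 0.76 and rho = 0.74 (permutation p = 0.00011 and 0.00037, adjusted 0.000367 and 0.00123), and ACLY and FASN r = 0.61 and rho = 0.59 (permutation p = 0.00346 and 0.00694, adjusted 0.00865 and 0.0173). FASN thus took part in 3 of the 4 pairs. With group means not subtracted, ACLY and FASN had r = 0.60 (adjusted permutation p = 0.0056). Their rho was then 0.48, with an adjusted permutation p of 0.0524.

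These relations kept their sign within each scan day and without the extreme pigs. By day, r was 0.91 and 0.84 for ACLY with ACSS2, 0.76 and 0.64 for ACACA with FASN, 0.90 and 0.66 for ACSS2 with FASN, and 0.84 and 0.45 for ACLY with FASN. Without the 2 pigs farthest from the median of the first gene, r was 0.83, 0.68, 0.67 and 0.68 for the same pairs. These 2 were picked by the first gene alone, so they need not be low RFI pigs 7 and 8. By group (restricted high, high, low RFI), r was 0.96, 0.66 and 0.84 for ACLY with ACSS2. For ACACA with FASN it was 0.81, 0.89 and 0.79, and for ACSS2 with FASN 0.55, 0.63 and 0.93. For ACLY with FASN it was 0.38, 0.48 and 0.85. ACACA did not pass with the genes that supply acetyl-CoA, at r = 0.31 with ACLY (adjusted permutation p = 0.20) and 0.33 with ACSS2 (adjusted permutation p = 0.198). Within groups of 8 pigs, r with ACLY was 0.0028 in restricted high RFI, 0.32 in high RFI and 0.93 in low RFI pigs, and r with ACSS2 was 0.045, 0.51 and 0.72 in the same groups. Whether these differ between groups was not tested. MLXIPL had r between -0.34 and 0.18 with the 4 enzymes, none of which passed.

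**Figure D4:**
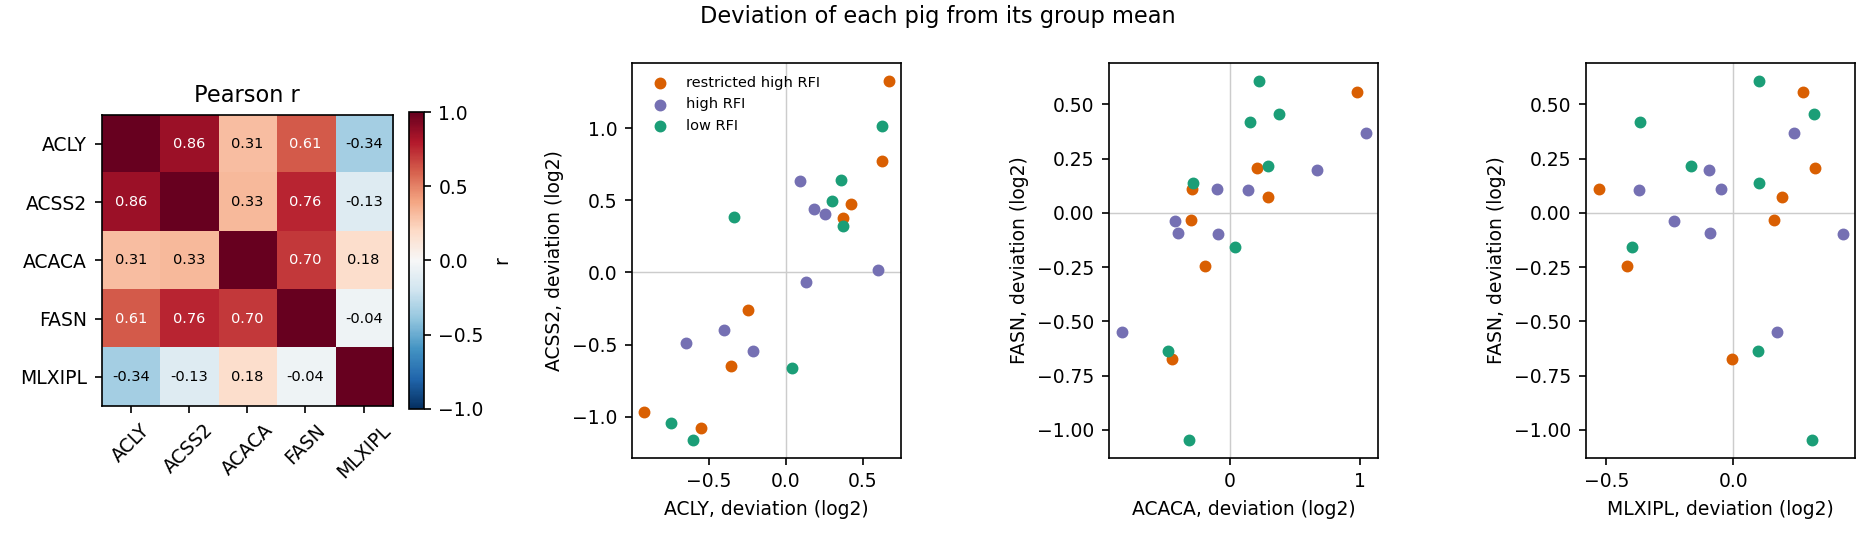
Left, Pearson's r between the 5 genes over deviations of each pig from its group mean (24 pigs, 23 with FASN). Right, the deviations (log2) of single pigs for 3 pairs: ACLY with ACSS2 (r = 0.86), ACACA with FASN (r = 0.70) and MLXIPL with FASN (r = -0.043).

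Probes of the same gene mostly ranked the pigs alike. Over 10 pairs of probes of a gene, 9 had r between 0.65 and 0.98 and passed. The exception was the ACACA pair printed above, with r = 0.35 and rho = 0.41 (permutation p = 0.109 and 0.0611, the same after adjustment). Both ACACA probes gave the higher mean in high than in low RFI pigs, but they differed in which pigs were high, so what holds of ACACA across pigs holds of its brightest probe.

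The genes whose levels followed each member most closely over the arrays were ranked by Pearson's r, with groups not removed, among 4372 named genes. Over 24 arrays, NPC1 (0.90) and SQLE (0.84) were among the 3 closest to ACLY, and CYP51 (0.89) and FDPS (0.87) were among the 3 closest to ACSS2. FASN was followed, over 23 arrays, by SCD (0.85), TKT (0.80), NPC1 (0.79), FLVCR2 (0.78), GLDC (0.76), PNPLA3 (0.75), MIOX (0.73), DTNBP1 (0.73), PGD (0.73) and DIO2 (0.72). ACACA had lower values, with DTNBP1 (0.71), CCS (0.69) and SSH3 (0.68) at the head, and MLXIPL was led by ANKRD28 (0.79), CLK3 (0.76) and SLC30A1 (0.75). These correlations share arrays, slides and any difference between groups, and are given as a description.

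The neighbouring steps of the pathway were taken from lists of 83 genes, of which 45 were measured, and none passed in any comparison by limma. At an unadjusted p below 0.05, 5 of the 45 had a higher and 3 a lower mean in high than in low RFI pigs, beside 5.17% and 4.47% of all probes. Between restricted and free-fed high RFI pigs the counts were 3 and 3 (beside 2.54% and 2.83%), and between restricted high and low RFI pigs 5 and 4 (beside 6.20% and 6.59%). The median differences were 0.054, -0.0062 and 0.079, beside 0.60, -0.35 and 0.096 for the 5 members.

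Among the elongases and desaturases, 6 of 10 were measured. SCD, which puts the first double bond into palmitate and stearate, had a lowest, median and highest level of 6.63, 7.19 and 7.51 in restricted high RFI, 6.60, 7.43 and 7.74 in high RFI, and 4.34, 6.84 and 7.68 in low RFI pigs. The low RFI group had the lowest pigs, and the groups overlapped. High minus low RFI was 0.84 ± 0.34 (SE, adjusted p = 0.413). FADS1, a desaturase of polyunsaturated fatty acids, gave 0.42 for high minus low RFI (adjusted p = 0.358) and -0.34 for restricted minus free-fed high RFI (adjusted p = 0.919). FADS2, which works beside it, gave -0.71 for restricted minus free-fed high RFI (adjusted p = 0.709) and -0.50 for restricted high minus low RFI (adjusted p = 0.239).

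Of the enzymes that supply NADPH, 3 of 7 were measured. Malic enzyme ME1 had a lowest, median and highest level of -2.86, -2.43 and -0.84 in restricted high RFI, -3.35, -1.79 and -1.04 in high RFI, and -3.79, -2.90 and -2.76 in low RFI pigs. The high RFI group reached well above the low RFI range and also overlapped it. High minus low RFI was 1.13 ± 0.28 (SE, adjusted p = 0.117), and restricted high minus low RFI was 0.79 (adjusted p = 0.231). PGD and TKT, of the pentose phosphate pathway, gave 0.24 and 0.18 for high minus low RFI, with adjusted p of 0.597 and 0.615.

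Upstream of citrate, 7 of 12 genes were measured. Pyruvate carboxylase (PC), which makes oxaloacetate, was 0.49 higher in restricted than in free-fed high RFI pigs (adjusted p = 0.802). PDHA1, a subunit of pyruvate dehydrogenase, gave -0.42 for high minus low RFI (adjusted p = 0.415) and -0.39 for restricted high minus low RFI (adjusted p = 0.332). For glucose entry only SLC2A2, the liver glucose transporter, was measured of 8 genes, at 0.11 for high minus low RFI (adjusted p = 0.803), and no probe named for liver pyruvate kinase (PKLR) was found.

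Of the transcriptional and insulin regulators, 10 of 18 were measured. SREBF1, the source of the lipogenic transcription factor SREBP-1, gave -0.019 for high minus low RFI (adjusted p = 0.983) and -0.14 for restricted minus free-fed high RFI (adjusted p = 0.967). Its processed protein was not measured. SCAP, which escorts SREBPs for cleavage, was 0.35 higher in restricted than in free-fed high RFI pigs (adjusted p = 0.693) and 0.22 higher in restricted high than in low RFI pigs (adjusted p = 0.254).

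AMP-activated kinase phosphorylates and inhibits acetyl-CoA carboxylase, and of the genes listed for this control 4 of 8 were measured. The subunit PRKAB1 gave -0.42 for high minus low RFI (adjusted p = 0.257) and -0.36 for restricted high minus low RFI (adjusted p = 0.237). The subunits PRKAA2 and PRKAG1 gave -0.078 and -0.16 for high minus low RFI (limma adjusted p = 0.868 and 0.752). For restricted high minus low RFI they gave 0.082 and -0.093 (limma adjusted p = 0.808 and 0.820). CPT1A, the mitochondrial entry enzyme that malonyl-CoA inhibits, had a lowest, median and highest level of 3.03, 3.76 and 4.49 in restricted high RFI, 2.47, 3.36 and 3.93 in high RFI, and 3.001, 3.93 and 4.76 in low RFI pigs. High RFI pigs were low and the groups overlapped. Its difference was -0.67 for high minus low RFI (adjusted p = 0.458) and 0.61 for restricted minus free-fed high RFI (adjusted p = 0.925), opposite in sign to FASN in both. These 2 comparisons share the high RFI arrays.

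The acyl-CoA synthetases activate fatty acids once made or taken up. ACSL3 gave 1.08 for restricted high minus low RFI (adjusted p = 0.0895) and 0.79 for high minus low RFI (adjusted p = 0.323). ACSL1 gave 0.35 for restricted high minus low RFI (adjusted p = 0.240), and ACSL5 0.20 for high minus low RFI (adjusted p = 0.492). In glycerolipid assembly, 5 of 6 genes were measured. DGAT2, which completes triglyceride, gave -0.65 for restricted high minus low RFI (adjusted p = 0.125), and the phosphatidate phosphatase LPIN2 gave 0.61 (adjusted p = 0.300). Mitochondrial fatty acid synthesis, a separate pathway, had 3 of 6 genes measured and a median of 0.054 for high minus low RFI.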

How the data were processed

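Per the labels, liver RNA of 24 pigs (150 ng each, Cy3) was hybridised on 1-colour Agilent arrays. Per the file headers, the deposited intensity is the processed signal of Agilent Feature Extraction 10.7.3.1, with background subtracted. A value table from the authors, in log2 units, held 27564 spots. It matched log2 of that signal minus the median of those spots on each array, and served as an alternative. R 2.10.0 is named in the submitters' processing notes. The deposited score columns mark spots well above background or as outliers with 0 or 1.

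Control and outlier spots were left out, log2 signals were centred on the 75th percentile of the array, and spots of a probe were averaged (43603 probes, 29665 kept). Groups came from the labels. limma 3.58.1 in R 4.3.3 was fitted to all 24 arrays with group as the only factor, and was tested on simulated data. The number of arrays limits the precision. Nothing says whether pigs were litter mates. Same-numbered pigs of 2 groups correlated above 0.1 in 1 of 8 pairs (high with low RFI), 5 of 8 (restricted with free-fed high RFI) and 2 of 8 (restricted high with low RFI). As not every pair did so in any comparison, the number was a block only in an alternative. Correlations used 100000 permutations (Python 3.11.15, numpy 2.4.6, scipy 1.17.1). Other tools were pandas 2.3.3, data.table (1.17.8) and matplotlib 3.10.9.

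Names in the scanner output were looked up in lists of pig symbols and in RefSeq (Sscrofa11.1, names only). Of the 43603 probes, 12004 had a single symbol. The members and gene lists were chosen with earlier results of these data known. All members are named, and of the pathway lists those with an unadjusted p below 0.05, except 1 such gene not reported here, plus SREBF1, SCD, ME1 and PKLR. PGD, TKT, SLC2A2, PRKAA2 and PRKAG1 were added after their values were seen. Some of the most alike genes are likewise left out. Alternatives were the background correction, normalization, filter, slide, scan day, pig number, weights and arrays left out.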

Additional observations from a re-analysis of the deposited data

How the results depend on the processing

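Under the alternatives each gene was followed by its brightest probe, and in 1 of them by the mean of its kept probes. So measured, no member passed the adjusted threshold under any alternative tried. FASN, ACACA and ACSS2 kept the higher mean in high than in low RFI pigs under all of them. The other probes were not followed singly. Leaving out 1 pig at a time gave high minus low differences of 0.47 to 0.71 for FASN, 0.45 to 0.72 for ACACA and 0.56 to 0.87 for ACSS2. The number of probes past the threshold over the whole array moved more, and the cause was not tested.

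For high minus low RFI, 48 probes passed, against 5 with normexp background correction, 28 with no filter, 5 on scan day 1, 10 on scan day 2, 82 with array weights and 28 without slide 3, and 27 to 57 with 1 pig left out. For restricted minus free-fed high RFI, 0 passed, against 1 on scan day 2, 2 with array weights, and 0 to 1 with 1 pig left out. For restricted high minus low RFI, 68 passed, against 13 with normexp, 36 on day 1, 10 on day 2, 32 with only the groups compared, 31 without low RFI pigs 7 and 8, 25 without restricted pigs 7 and 8 and 24 without slide 3, and 30 to 145 with 1 pig left out. With the pig number as a replicate block it was 103. The block changed no call of a member. In the F test, 63 passed, against 7 with normexp, 37 with no filter, 9 on day 1, 11 on day 2, 29 without low RFI pigs 7 and 8, 40 without restricted pigs 7 and 8 and 29 without slide 3, and 36 to 90 with 1 pig left out.

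Some signs turned, and since no member difference passed, all of these were differences that did not pass. For ACLY, high minus low RFI was -0.040 without low RFI pigs 7 and 8. Restricted minus free-fed high RFI was 0.12 without restricted pigs 7 and 8 and 0.014 without slide 3, and -0.18 to 0.042 with 1 pig left out. Restricted high minus low RFI was -0.0095 on day 2 and -0.13 without low RFI pigs 7 and 8, and -0.012 to 0.23 with 1 pig left out. For ACSS2, restricted high minus low RFI was 0.093 with normexp, 0.18 without restricted pigs 7 and 8 and 0.18 without slide 3, and -0.28 to 0.061 with 1 pig left out. For FASN it was -0.024 without low RFI pigs 7 and 8. For MLXIPL it was 0.12 on day 2, and high minus low RFI was 0.051 with normexp, 0.14 on day 2, 0.0012 with array weights, 0.054 without low RFI pigs 7 and 8, 0.041 without high RFI pigs 5 and 7 and 0.034 without slide 3, and -0.075 to 0.039 with 1 pig left out. Without the 2 farthest pigs, r was -0.021 for ACACA with MLXIPL and 0.13 for FASN with MLXIPL.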
